A study of Homo sapiens with 33 samples.

Results

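The difference in cetuximab response between SCC1 and SCC6, established lines of head and neck squamous cell carcinoma (HNSCC), was measured by bulk RNA sequencing. Of the 33 libraries in the deposited table, the 20 of SCC1 and SCC6 on days 1 to 5 were used, with 5 libraries for each line and treatment. Both lines were cultured for 5 days with 100 nM cetuximab (CTX) or with PBS, which served as the untreated control, and the media were changed daily. The sources differ on the media. The labels name hydrocortisone for SCC1 and high glucose with non-essential amino acids for SCC6, whereas the study's methods give both lines the same serum-supplemented mixture and name no hydrocortisone. If the labels hold, line and medium cannot be told apart. Each library is 1 culture day of 1 line and treatment. The days stood in for replicates, and p-values measure the spread between days, including any course over time. Among the SCC6 CTX libraries, the labels give day 2 for 2 libraries, called 2a and 2b here, and day 1 for none. For each gene, the change under cetuximab in SCC1 was subtracted from that in SCC6, and genes that changed in both lines with opposite signs are called opposite genes.

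EGFR is a receptor tyrosine kinase that carries growth signals from ligands such as amphiregulin to the RAS and ERK pathway, and cetuximab is an antibody that blocks ligand binding to it. In stratified epithelium, EGFR signalling keeps basal keratinocytes growing and restrains their differentiation into cells rich in keratins, desmosomes and cornified envelope proteins. Epithelial to mesenchymal transition (EMT) is a programme in which epithelial cells lower E-cadherin and other junction genes and raise vimentin, matrix and contractile genes.

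Total counts per library ranged from 28508758 to 80727478, and the 2 highest totals were those of SCC6 CTX on days 4 and 5. By the column headers, these 2 libraries were alone on 1 flow cell. SCC1 PBS of day 5 shared its flow cell with the 5 SCC1 CTX libraries and with SCC6 PBS of day 1, while SCC1 PBS of days 1 to 4 was on another. SCC6 PBS of days 2 to 5 was on the same flow cell as CTX 2a, 2b and day 3. Flow cell and treatment therefore overlap in part in both lines. No 2 libraries of a group were alike within sampling noise. Of the squamous epithelial markers, EPCAM, SFN, TP63, CDH1 and CDH3 were well above 1 CPM (CPM are counts scaled by TMM to a common library size) in each library of both lines. The basal keratins and desmosomal genes were low in SCC6. KRT5 was at 277 CPM or more in SCC1 and between 1.81 and 14.5 CPM in SCC6, and KRT14 at 146 CPM or more and between 1.88 and 6.74 CPM. DSG3 was at 36.3 CPM or more in SCC1 and between 1.00 and 4.55 CPM in SCC6, and PKP1 at 17.8 CPM or more and between 0.406 and 1.59 CPM. Of 10 leukocyte markers 7, of 8 endothelial markers 6 and of 12 fibroblast markers 5 stayed under 1 CPM in all 20 libraries, among them PTPRC, CD3E, MS4A1, CLDN5, PDGFRA, LUM and THY1. In bulk RNA, fewer cells of a type and less RNA per cell cannot be told apart.

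The response to cetuximab differed between the lines in 3407 of 19747 tested genes (17.3%) by edgeR's quasi-likelihood test at a Benjamini-Hochberg adjusted p under 0.05. The change was higher in SCC6 for 1816 of them (9.2% of tested genes) and lower for 1591 (8.06%). Cetuximab changed 5850 genes in SCC1 (15.2% of tested genes rose and 14.4% fell) and 7325 in SCC6 (18.2% and 18.9%). These shares of all tested genes stand beside the counts of list members given below. Of the 3052 genes changed in both lines, 2647 moved in the same direction and 405 (2.05% of tested genes) in opposite directions. All 405 passed the test of the difference, which adds little, since changes of opposite sign add up in that difference. Of these, 233 (1.18%) fell in SCC1 and rose in SCC6, and 172 (0.871%) rose in SCC1 and fell in SCC6. The remaining calls were 1021 genes changed in SCC1 alone, 1523 in SCC6 alone, 333 changed the same way to a different extent and 125 that passed only the test of the difference. For 82 and 53 opposite genes (0.415% and 0.268% of tested genes), respectively, no CTX library overlapped with a PBS library in either line. Of all tested genes, 8.07% had no overlap in both lines whatever the direction, and 161 (0.815%) had none with opposite signs. Opposite genes were chosen for a change in both lines, which favours such a lack of overlap. Both changes were at least 1 on the log2 scale for 71 opposite genes.

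**Figure D1:**
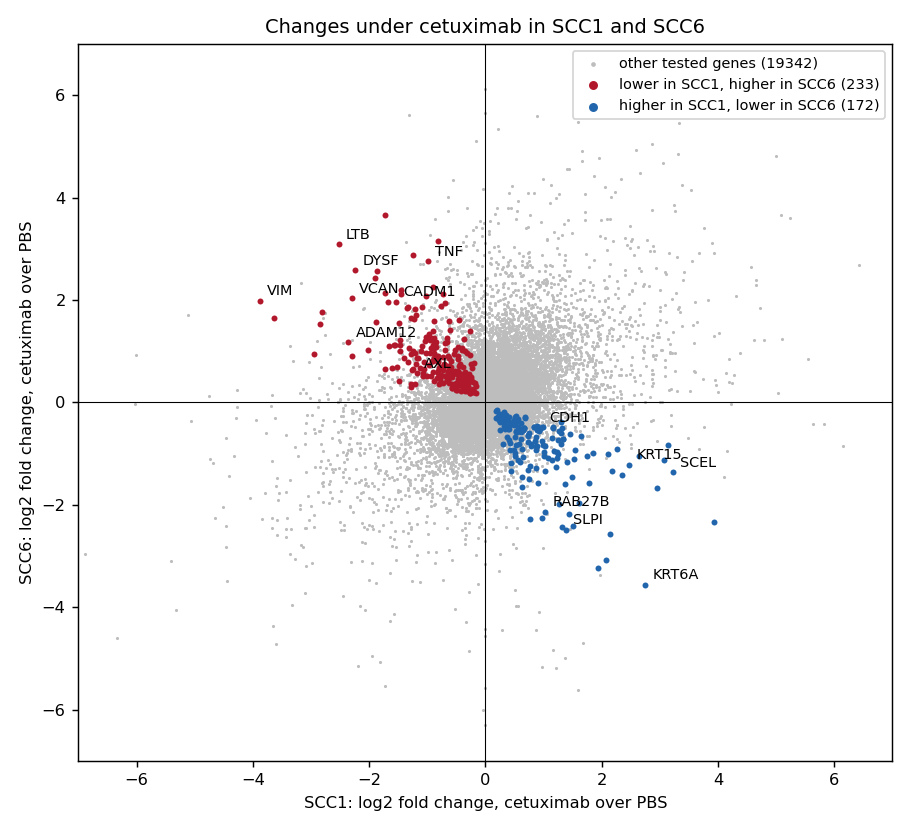
Log2 fold change under cetuximab in SCC1 (x axis) and SCC6 (y axis), 1 point per tested gene, with the 233 genes that fell in SCC1 and rose in SCC6 in red and the 172 genes that moved the other way in blue. VIM and LTB lie far to the upper left and KRT6A and SCEL to the lower right, while most of the grey points cluster near 0, and 7 genes lie outside the axes.

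Within flow cells, the 5 SCC1 CTX libraries were set against SCC1 PBS of day 5, and SCC6 CTX 2a, 2b and day 3 against SCC6 PBS of days 2 to 5, which left 399 of the 405 opposite genes (98.5%) and 72.9% of all tested genes with the signs they had over all 20 libraries. These libraries were among those that had chosen the opposite genes, so the signs are no independent check. In SCC6 the PBS libraries of that flow cell were in lane 1 and the CTX libraries in lane 2, so that lane and treatment cannot be told apart there. In a second fit that also held a term for each flow cell, called the flow cell fit here, edgeR called 1912 genes for the difference, 123 that fell in SCC1 and rose in SCC6 and 68 that moved the other way, and 136 of the 405 opposite genes were still called. In SCC1 this fit rests on a single PBS library, and SCC6 CTX of days 4 and 5, alone on their flow cell, have no weight in it. Without the SCC6 CTX libraries of days 4 and 5, 2655 genes were called for the difference, and 219 and 104 were opposite.

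Mesenchymal genes separated the lines in 1 direction. Of 18 tested genes of this list, 14 had a higher change in SCC6 and none a lower one, and the difference was positive in all 18. Their median change was -0.43 in SCC1 and 1.30 in SCC6 on the log2 scale, and the median difference was 1.67, beside -0.03 over all tested genes. The 5 members VIM, ADAM12, BNC2, LOX and CMTM3 were opposite genes.

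VIM encodes vimentin, the intermediate filament protein of mesenchymal cells, and lies at chr10:17270240-17279592 on GRCh37. Its level in SCC1 was 107, 205, 242, 237 and 142 CPM with PBS on days 1 to 5 and 21.6, 12.5, 12.3, 8.12 and 8.58 CPM with cetuximab. The SCC1 groups were far apart, and cetuximab was lower on each day. In SCC6 it was 170.3, 116, 82.1, 48.4 and 36.7 CPM with PBS and 239.9, 155, 399.6, 461 and 544 CPM in CTX 2a, 2b and days 3 to 5. The SCC6 groups overlapped, since PBS of day 1 was above CTX 2b, and the PBS level dropped from day to day while the CTX level was highest on days 4 and 5. The log2 change was -3.88 ± 0.43 (SE) in SCC1 and 1.99 ± 0.39 in SCC6, a difference of 5.87 ± 0.58 (edgeR's adjusted p = 1.19e-06). Within flow cells the log2 ratios were -3.48 and 1.90.

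ADAM12, a membrane metalloprotease of the ADAM family, was at 1.29, 1.16, 0.942, 0.929 and 0.754 CPM in SCC1 with PBS and at 0.2, 0.329, 0.271, 0.024 and 0.143 CPM with cetuximab. All SCC1 levels were low, and the groups did not overlap. SCC6 had 31.8, 26.6, 23.6, 21.7 and 24.8 CPM with PBS and 58.5, 47.1, 68.9, 57.1 and 57.9 CPM with cetuximab, again without overlap. The changes were -2.36 ± 0.29 and 1.17 ± 0.17, a difference of 3.53 ± 0.33 (edgeR's adjusted p = 7.36e-07). LOX, which cross-links collagen, changed by -0.62 in SCC1 and 1.42 in SCC6. CMTM3, a chemokine-like membrane protein, changed by -0.63 and 1.58, and BNC2, a zinc finger factor that was under 3 CPM throughout, by -1.21 and 1.82. Under the flow cell fit VIM and ADAM12 were called opposite, and LOX, CMTM3 and BNC2 kept their signs without both calls.

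Markers of fibroblasts moved with this group only in part. Of 7 tested, 3 had a higher and 1 a lower change in SCC6, and the median difference was 0.22. In SCC1, 4 of them rose and 1 fell. COL1A2 was the marker with the lower change, with 2.02 ± 0.24 in SCC1 and -0.35 ± 0.44 in SCC6. The summed level of the 12 markers was 77.6 to 102 CPM with PBS and 105 to 236 CPM with cetuximab in SCC1. In SCC6 it was 6.75 to 9.89 and 19.9 to 142 CPM. Cetuximab was above PBS in both lines, and the part of these markers in the difference was not tested. In SCC6, COL1A1 reached 87.8 CPM, COL3A1 17.7 CPM and PDGFRB 8.32 CPM under cetuximab. DCN, LUM, PDGFRA, THY1, DPT, TCF21 and COL1A2 stayed under 1 CPM there. PDGFRB had the largest called difference of the list, 4.71 ± 1.11 (edgeR's adjusted p = 0.00529), with a change of 5.59 ± 0.69 in SCC6. It was at 0.38 CPM or less in SCC1, so this difference rests on few counts there. FAP was at 29.9 to 39.7 CPM with PBS and 45.3 to 77.2 CPM with cetuximab in SCC1. PDPN (podoplanin), a member of that list which squamous carcinoma cells also express, was an opposite gene. It was at 19.9, 39.2, 36.9, 27.1 and 23.1 CPM and 10.7, 17.4, 16.2, 15.7 and 17.9 CPM in SCC1 and at 4.32, 4.6, 4, 3.44 and 3.21 CPM and 14.2, 9.72, 19.3, 22.3 and 27.3 CPM in SCC6, PBS first. Neither line showed overlap, and the changes were -0.91 ± 0.23 and 2.25 ± 0.25 (edgeR's adjusted p of the difference = 2.36e-06). In the flow cell fit the SCC1 change of PDPN was -0.57 and not called.

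Over all tested genes, the 10 opposite genes that fell in SCC1 and rose in SCC6 whose smaller change was largest, among those without overlap in either line and with log2 CPM averaging 3 or more, were LTB, DYSF, DPYSL3, ARHGAP31, CADM1, WNT5B, PALM2-AKAP2, ADAM12, RFLNB and SLC22A3. LTB encodes lymphotoxin beta, a membrane-bound cytokine of the TNF family, and lies at chr6:31548302-31550299 on GRCh37. In SCC1 it read 14.1, 23.8, 26.5, 32.5 and 20.04 CPM with PBS and 4.93, 4.91, 4.4, 2.67 and 3.35 CPM with cetuximab. In SCC6 it read 0.191, 0.457, 0.746, 0.537 and 0.627 CPM with PBS and 3.76, 2.05, 2.76, 7.33 and 5.33 CPM with cetuximab. PBS lay above cetuximab in SCC1 and below it in SCC6, and no groups of a line overlapped. The change was -2.53 ± 0.30 in SCC1 and 3.09 ± 0.37 in SCC6, a difference of 5.61 ± 0.48 (edgeR's adjusted p = 2.02e-07).

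DYSF (dysferlin), which takes part in the repair of the plasma membrane, was at 33.7, 80.1, 124, 116 and 83.9 CPM in SCC1 with PBS and at 16.4, 20.7, 20.8, 17.6 and 17.4 CPM with cetuximab. The lowest PBS value was that of day 1 and still lay above the CTX libraries. SCC6 had 9.66, 6.43, 6.16, 5.32 and 6.2 CPM with PBS and 22.5, 11.5, 43.2, 57.7 and 67.3 CPM with cetuximab, highest on days 4 and 5. The difference between the changes was 4.82 ± 0.53 (edgeR's adjusted p = 3.02e-06). CADM1, an adhesion molecule of the immunoglobulin family, fell from 23.7 ± 2.98 to 8.13 ± 1.17 CPM (mean ± SD, n = 5) in SCC1 and rose from 7.27 ± 1.34 to 28.4 ± 10.1 CPM in SCC6. Its PBS range in each line overlapped with the cetuximab range of the other line. The changes were -1.54 ± 0.19 and 1.97 ± 0.19 (edgeR's adjusted p of the difference = 9.55e-08).

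The other members of these 10 covered the cytoskeleton, signalling and transport. DPYSL3, a cytoskeletal protein of the collapsin response mediator family, changed by -1.90 in SCC1 and 2.42 in SCC6. ARHGAP31, a GTPase activating protein for CDC42 and RAC1, changed by -1.87 and 2.57, from 51.99 ± 9.08 to 14.2 ± 1.53 CPM in SCC1 and from 0.818 ± 0.146 to 4.78 ± 3.21 CPM in SCC6. RFLNB, a partner of filamin, changed by -1.02 and 2.08, and SLC22A3, an organic cation transporter, by -1.01 and 0.97. Each of the 4 had groups without overlap in both lines. PALM2-AKAP2 changed by -1.33 and 1.87, but this symbol names a read-through of 2 neighbouring genes, and counts could be split between them. WNT5B, a WNT ligand, was low in SCC1, at 0.97, 0.876, 1, 0.685 and 0.44 CPM with PBS, and its change there was -1.35 ± 0.40 beside 1.85 ± 0.28 in SCC6. Under the flow cell fit WNT5B and RFLNB were no longer called opposite, with changes of -0.51 and 1.65 and of -0.70 and 1.68, and WNT5B also lost the call on days 3 to 5 alone.

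**Figure D2:**
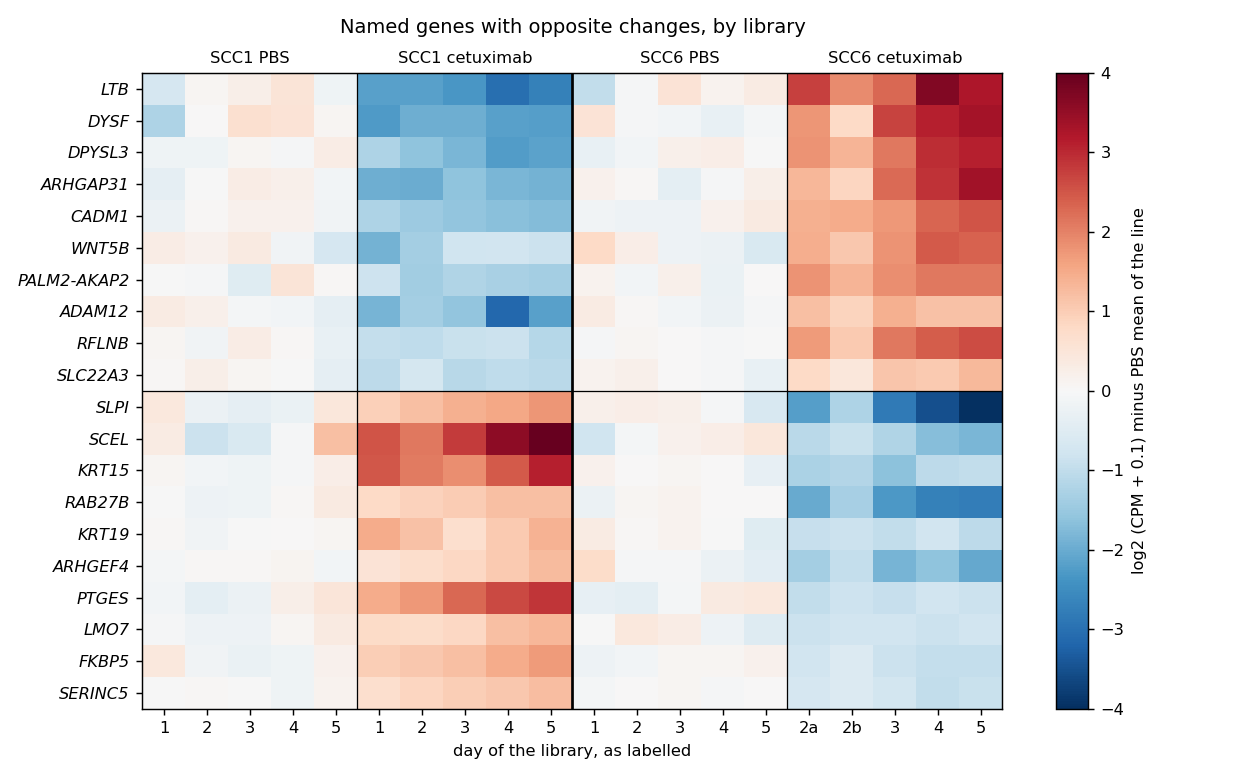
Log2 (CPM + 0.1) of the 20 named opposite genes in each of the 20 libraries, after the mean of the 5 PBS libraries of the same line was subtracted. Rows are genes, columns are libraries by labelled day, and red is above and blue below the PBS mean of the line; the upper 10 genes turn from blue in SCC1 to red in SCC6 under cetuximab and the lower 10 the reverse.

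Contractile and matrix genes moved in the same direction as the mesenchymal list, though mostly through a larger rise in SCC6. Of 14 contractile genes, 11 had a higher change in SCC6 and none a lower one, with a median change of 0.45 in SCC1 and 3.12 in SCC6. TAGLN (transgelin), an actin-binding protein of smooth muscle and myofibroblasts, was at 17.2, 15.1, 18.02, 15.4 and 14.3 CPM in SCC6 with PBS and at 191, 93.1, 298, 347 and 436 CPM with cetuximab. SCC1 had 113, 86.4, 66.5, 61.8 and 105 and 108, 147, 159, 140.3 and 163 CPM. The SCC6 groups were far apart and the SCC1 groups overlapped, and the changes were 4.09 ± 0.30 and 0.73 ± 0.27 (edgeR's adjusted p of the difference = 5.83e-06). ACTA2, the smooth muscle actin, was the opposite gene of this list. It fell from 9.82 ± 1.63 to 4.31 ± 0.812 CPM in SCC1 and rose from 0.44 ± 0.305 to 1.41 ± 0.955 CPM in SCC6, where PBS of day 5 overlapped with the CTX range. In the flow cell fit its SCC6 change was 0.91 and not called, and 8 of 14 contractile genes had a higher change in SCC6.

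Of 23 matrix glycoproteins and proteoglycans, 12 had a higher and 1 a lower change in SCC6, and the median difference was 1.24. The opposite genes were VCAN, CTGF, CYR61 and FBN2. VCAN (versican) was at 5.7, 7.79, 10.9, 11.5 and 9.74 CPM with PBS and 2.47, 1.8, 1.48, 1.44 and 2.07 CPM with cetuximab in SCC1, without overlap. In SCC6 it was at 0.127, 0.141, 0.0785, 0.0537 and 0.148 and 0.0977, 0.0946, 0.102, 0.545 and 1.15 CPM, and only CTX of days 4 and 5 lay above the PBS range. Under the flow cell fit its SCC6 change was -0.05, and the difference was 2.34 (edgeR's adjusted p = 0.079). FBN2 (fibrillin 2) changed by -0.32 ± 0.07 and 0.97 ± 0.07 without overlap in either line. Among 22 collagens, 8 had a higher and 1 a lower change in SCC6. COL6A1 fell by 1.48 in SCC1 and rose by 1.56 in SCC6. COL4A1, a basement membrane collagen, rose by 3.25 ± 0.35 in SCC6 and had a change of -0.07 ± 0.32 in SCC1. The median difference of the collagens was 0.45, and without SCC6 CTX of days 4 and 5 it was 0.0017 with 5 higher and 1 lower calls. In the TGF-beta list 9 of 17 tested genes had a higher change in SCC6 and 1 a lower one, and the flow cell covariate left 4 and 1. INHBA, a subunit of activins, was opposite with -1.19 and 0.74, and its groups did not overlap in either line.

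YAP and TEAD targets held 5 opposite genes, CTGF, CYR61, AXL, FJX1 and NUAK2, which all fell in SCC1 and rose in SCC6. Of 22 tested members 10 had a higher and 2 a lower change in SCC6, with a median difference of 0.40. CTGF encodes a matricellular growth factor. Its promoter is shown with that of NUAK2, an AMPK-related kinase, because both hold the letters GGAATG, the core of TEAD binding sites, on either strand. The sequences are the 200 bases before the gene start from RefSeq on GRCh38.p14, 5′ to 3′ on the minus strand, on which both genes lie, with the motif in capitals. The CTGF stretch is chr6:131951373-131951572, and the NUAK2 stretch is chr1:205321746-205321945.
CTGF: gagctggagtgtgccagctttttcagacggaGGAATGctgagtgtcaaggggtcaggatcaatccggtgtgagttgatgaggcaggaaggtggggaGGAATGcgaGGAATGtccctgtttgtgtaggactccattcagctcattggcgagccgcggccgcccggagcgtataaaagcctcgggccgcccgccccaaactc
NUAK2: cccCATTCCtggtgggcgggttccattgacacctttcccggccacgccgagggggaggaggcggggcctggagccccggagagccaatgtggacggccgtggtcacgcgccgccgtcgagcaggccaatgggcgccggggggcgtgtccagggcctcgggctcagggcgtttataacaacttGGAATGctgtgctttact
The motif begins 169, 104 and 95 bases before the start in CTGF and 197 and 18 bases before it in NUAK2. In promoters of 300 bases, from 250 before to 50 after the start, it was present in 23 of 186 genes that fell in SCC1 and rose in SCC6 (12.4%), in 11 of 124 that moved the other way (8.87%) and in 11.2% of 12339 tested genes with a sequence. These shares lie close together, and a match describes letters, not binding.

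CTGF was at 192, 211, 213, 192 and 215 CPM in SCC1 with PBS and at 85.9, 118, 122, 108 and 99.2 CPM with cetuximab, and the groups did not overlap. SCC6 had 63.4, 96.7, 124, 76.97 and 59.3 CPM with PBS and 149, 87.4, 234, 194 and 217 CPM with cetuximab, where CTX 2b fell inside the PBS range. The changes were -0.94 ± 0.21 and 1.07 ± 0.21, a difference of 2.01 ± 0.30 (edgeR's adjusted p = 7.63e-05). NUAK2 changed by -0.72 and 0.63, CYR61 by -0.38 and 0.69 and FJX1, a secreted kinase-like protein, by -1.06 and 0.58. CTGF, NUAK2, CYR61 and AXL were also called opposite in the flow cell fit, and FJX1 was not.

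Receptors moved in both directions. AXL, a receptor tyrosine kinase of the TAM family, was at 206, 249, 269, 241 and 235 CPM in SCC1 with PBS and 125, 121, 104, 90.1 and 87.9 CPM with cetuximab, without overlap. SCC6 had 263, 204, 211, 200.4 and 209.6 CPM with PBS and 291, 238, 339, 386 and 364 CPM with cetuximab, and PBS of day 1 lay above CTX 2b. Its changes were -1.18 ± 0.13 and 0.57 ± 0.13, a difference of 1.75 ± 0.18 (edgeR's adjusted p = 1.55e-06). EPHB2, an ephrin receptor, went from 42.9 ± 2.63 to 23.8 ± 2.87 CPM in SCC1 and from 61.8 ± 11.7 to 131 ± 34.1 CPM in SCC6, without overlap in either line (edgeR's adjusted p of the difference = 2.79e-06). ERBB3, a partner of EGFR with little kinase activity of its own, moved the other way. It was at 36.1, 30.03, 29.1, 31.2 and 31.6 CPM and 59.7, 57.7, 54.2, 59.98 and 59.8 CPM in SCC1 and at 50.4, 46.6, 36.7, 35.2 and 33.7 CPM and 28.4, 37.8, 23.7, 28.5 and 29.5 CPM in SCC6, PBS first. The SCC1 groups were apart and the SCC6 groups overlapped, with changes of 0.88 ± 0.12 and -0.46 ± 0.12 (edgeR's adjusted p of the difference = 1.13e-05).

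TGFBR3 (betaglycan), a co-receptor for TGF-beta, rose in SCC1 from 5.02, 4.51, 4.28, 4.75 and 4.69 CPM to 8.33, 9.94, 10.4, 11.04 and 14.9 CPM and fell in SCC6 from 9.03, 11.4, 10.5, 9.07 and 10.1 CPM to 6.04, 7.29, 4.36, 3.17 and 2.88 CPM. No library crossed between the groups in either line, and the difference was -2.32 ± 0.29 (edgeR's adjusted p = 1.12e-05). EGFR itself rose by 0.58 ± 0.08 in SCC1 and had a change of 0.08 ± 0.08 in SCC6, a called difference of -0.50 ± 0.11 that was at an edgeR adjusted p of 0.05 in the flow cell fit. FGFR1 had changes of -0.82 and 0.09, and its call rested on most single libraries, since edgeR's adjusted p was 0.0462 and lay above 0.05 in 13 of the 20 fits that left out 1 library. VEGFA, an angiogenic ligand, changed by -1.37 ± 0.18 in SCC1 and had a change of -0.34 ± 0.18 in SCC6, with a difference of 1.02 that was 0.62 and not called in the flow cell fit. The differences of TFAP2A (-0.07 ± 0.14), an epithelial transcription factor, MYC (-0.32 ± 0.21), ERBB2 (0.19 ± 0.24) and IGF1R (0.41 ± 0.14) did not pass the test, with edgeR's adjusted p of 0.778, 0.318, 0.652 and 0.0551. MYC fell and IGF1R rose in both lines.

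**Figure D3:**
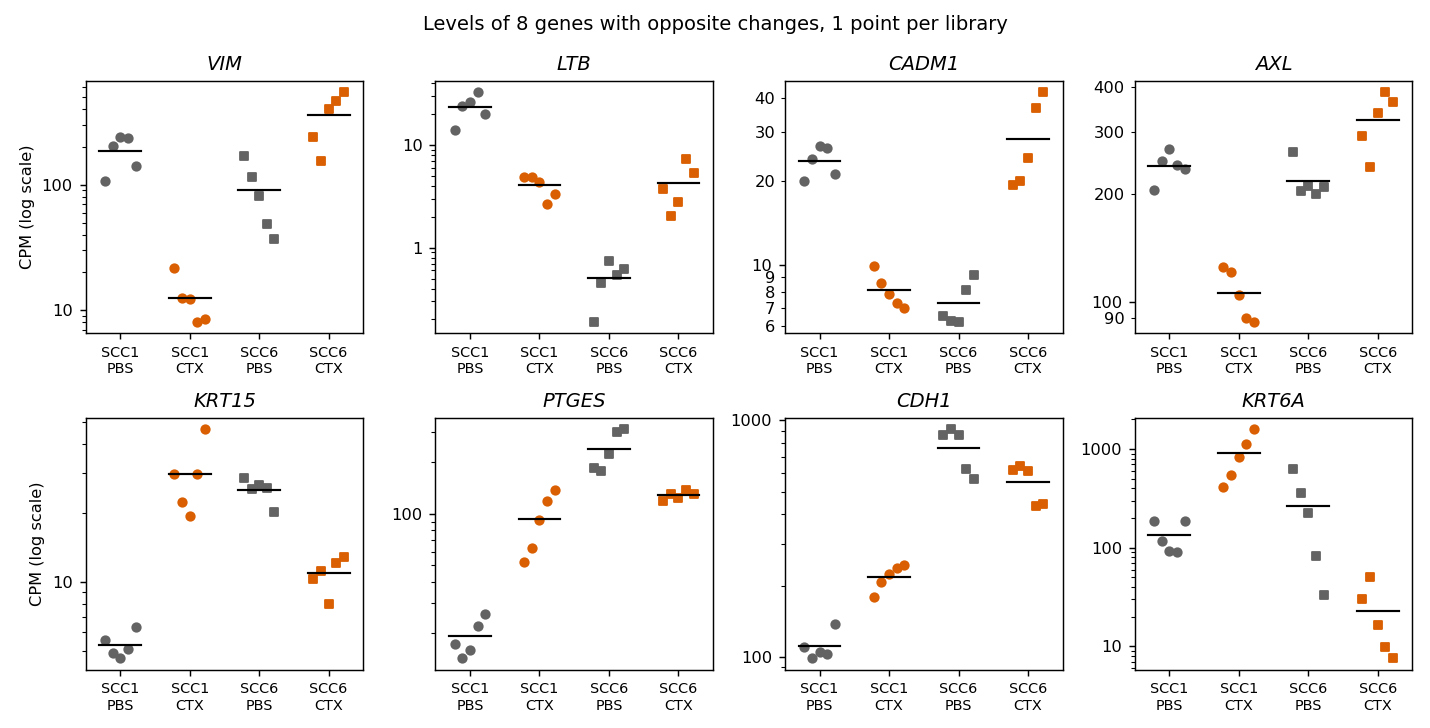
CPM on log axes in the 20 libraries for 8 opposite genes, with SCC1 as circles, SCC6 as squares, PBS in grey, cetuximab (CTX) in orange, points of a group in order of the labelled day and black lines at the group means. VIM, LTB, CADM1 and AXL fall in SCC1 and rise in SCC6, and KRT15, PTGES, CDH1 and KRT6A do the reverse; the SCC6 groups overlap for VIM, AXL, CDH1 and KRT6A.

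Epithelial junction genes went against the mesenchymal list. Of 20 tested genes, 9 had a lower change in SCC6 and none a higher one, and the difference was negative in all 20. The median change was 0.20 in SCC1 and -0.41 in SCC6. CDH1, GRHL1 and MARVELD2 were opposite genes. CDH1 (E-cadherin), the adhesion receptor of adherens junctions, was at 109.7, 98.4, 105, 103 and 138 CPM in SCC1 with PBS and at 179, 206, 223, 238 and 245 CPM with cetuximab. These groups did not overlap. In SCC6 the level was several times higher, with 867, 919, 869, 620.1 and 564 CPM with PBS and 619.6, 642, 613, 433 and 442 CPM with cetuximab, and the groups overlapped. The changes were 0.98 ± 0.15 and -0.48 ± 0.15, a difference of -1.46 ± 0.21 (edgeR's adjusted p = 4.78e-05). In the flow cell fit the SCC6 change of CDH1 was -0.25 and it was no longer called opposite, nor were GRHL1 and MARVELD2, and 4 of the 20 genes had a called difference.

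GRHL1, a grainyhead factor that maintains epithelial junctions, was at 10.4, 9.72, 9.58, 8.12 and 9.7 CPM and 12.8, 11.6, 11.7, 13.3 and 15.2 CPM in SCC1 and at 39.01, 44.05, 37.8, 35.97 and 33.02 CPM and 20.5, 23.2, 16.1, 12.4 and 11.2 CPM in SCC6, PBS first. Cetuximab was above PBS in SCC1 and below it in SCC6 with no overlap, and the difference was -1.63 ± 0.22 (edgeR's adjusted p = 2.94e-05). MARVELD2 (tricellulin) changed by 0.26 and -0.34, the smallest changes of the 3. Of 12 desmosome genes 4 had a lower and 2 a higher change in SCC6. DSG3, a desmoglein of squamous epithelium, rose in SCC1 from 51.8, 36.3, 39.9, 40.5 and 61.5 CPM to 112, 153, 204, 248 and 274 CPM. SCC6 had little of it, with 4.55, 4.04, 2.67, 1.53 and 1.77 CPM with PBS and 1, 1.51, 1.63, 1.49 and 1.58 CPM with cetuximab, and its groups overlapped. It rose by 2.11 ± 0.25 in SCC1 and fell in SCC6, a difference of -3.11 ± 0.39 (edgeR's adjusted p = 1.26e-05), and the SCC6 change was not called in the flow cell fit. PKP1, a plakophilin, rose by 2.84 ± 0.24 in SCC1 and had a change of -0.37 ± 0.36 in SCC6. PKP2, the plakophilin of simple epithelia and heart, went against the list, with -0.62 in SCC1 and 0.65 in SCC6 and no overlap in either line.

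Keratins had a median difference of -1.28, with medians of 1.15 in SCC1 and -0.45 in SCC6. Of 18 tested keratins 9 had a lower change in SCC6 and none a higher one. KRT15 (chr17:39669997-39678781 on GRCh37), a basal keratin, and its neighbour KRT19 (chr17:39679869-39684560), a keratin of simple and stratified epithelia, were opposite genes. KRT15 was at 5.57, 4.86, 4.63, 5.06 and 6.37 CPM with PBS and 29.6, 22.5, 19.4, 29.6 and 46.5 CPM with cetuximab in SCC1, and at 28.5, 25.5, 26.6, 25.7 and 20.2 and 10.3, 11.1, 8.01, 12.1 and 12.8 CPM in SCC6. The CTX range of SCC1 covered the PBS range of SCC6, and no groups of a line overlapped. The changes were 2.48 ± 0.19 and -1.22 ± 0.18, a difference of -3.69 ± 0.26 (edgeR's adjusted p = 5.59e-08). KRT19 was at 128, 113, 122, 126 and 132 CPM and 349.6, 279, 196, 257 and 322 CPM in SCC1 and at 1107, 894, 954, 862 and 623 CPM and 462, 476, 436, 515 and 422 CPM in SCC6, PBS first, without overlap in either line. Its difference was -2.12 ± 0.19 (edgeR's adjusted p = 5.42e-07).

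KRT6A, a keratin of activated and stratified keratinocytes, was at 188, 118, 93.4, 90.8 and 186 CPM in SCC1 with PBS and at 415, 544, 838, 1133 and 1595 CPM with cetuximab. The CTX values rose with the day and lay above the PBS range. SCC6 had 625, 363, 226, 82.1 and 33.2 CPM with PBS and 30.1, 50.1, 16.5, 9.8 and 7.57 CPM with cetuximab, so PBS declined with the day, CTX was lowest on day 5, and PBS of day 5 overlapped with CTX 2b. The difference was -6.30 ± 0.90 (edgeR's adjusted p = 5.34e-05), and in the flow cell fit the SCC1 change of 2.28 was not called. KRT6A, KRT6B and KRT6C are near-identical copies, and the split of reads between them is uncertain. KRT6B had a change of 0.50 ± 0.74 in SCC1 and fell by 3.66 ± 0.71 in SCC6, and its difference of -4.16 was -1.82 in the flow cell fit (edgeR's adjusted p = 0.319). KRT13, a keratin of the upper layers of mucosa, rose by 5.63 ± 0.55 in SCC1, from 5.87, 1.55, 1.41, 1.28 and 6.45 CPM to 68.5, 93.1, 116, 200.4 and 339 CPM. In SCC6 it stayed under 8 CPM in each library, with a change of -0.43 ± 0.49, and the difference was -6.06 ± 0.72 (edgeR's adjusted p = 7.4e-06).

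**Figure D4:**
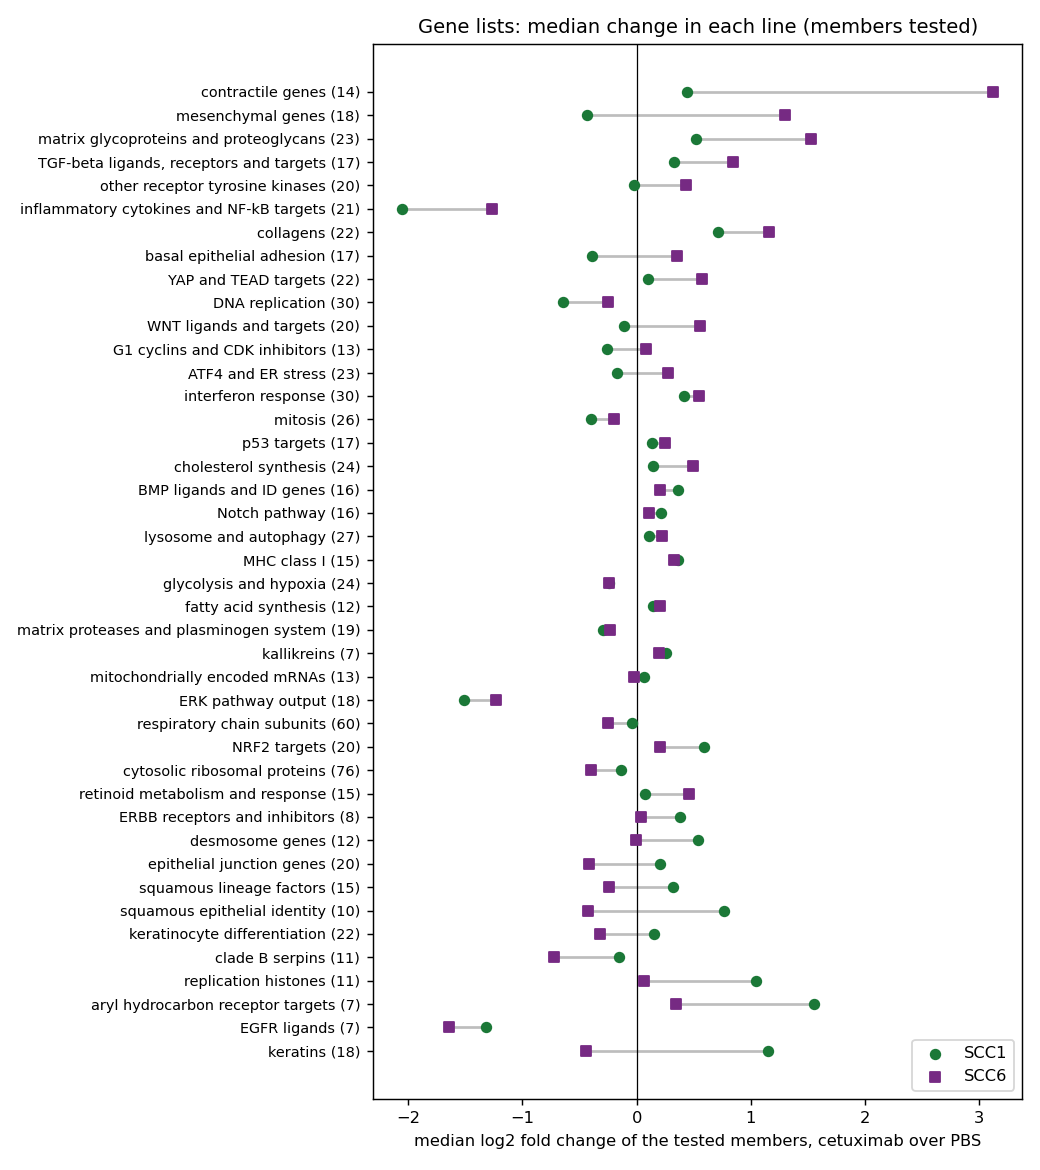
Median log2 fold change under cetuximab of the tested members of 42 gene lists in SCC1 (green circles) and SCC6 (purple squares), ordered by the median difference, with the number of tested members in brackets. The contractile and mesenchymal lists are at the top with SCC6 to the right, keratins at the bottom with SCC6 to the left, and ERK pathway output lies below 0 in both lines.

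Squamous lineage factors followed the keratins in part, with 6 of 15 having a lower and 1 a higher change in SCC6. In SCC6 itself 6 fell and 4 rose, and in SCC1 4 rose and none fell. Of the squamous markers, TP63 was at 33.6 to 54.7 CPM in SCC6 with PBS and 73.7 to 122 CPM with cetuximab. KRT5 was at 1.81 to 3.31 and 10.3 to 14.5 CPM there. ZNF750, which drives terminal differentiation of keratinocytes, was at 2.39, 1.86, 1.52, 3.56 and 3.92 CPM and 3.44, 4.69, 7.03, 10.3 and 10.5 CPM in SCC1 and at 0.858, 0.738, 0.903, 0.564 and 0.48 CPM and 0.318, 0.284, 0.051, 0.146 and 0.0428 CPM in SCC6, PBS first. The SCC1 groups overlapped and the SCC6 groups, all under 1 CPM, did not. Its difference of -3.61 ± 0.60 (edgeR's adjusted p = 0.000262) was -2.49 with an adjusted p of 0.0698 by edgeR in the flow cell fit. KLF5, a factor of proliferating epithelium, changed by 0.53 and -0.83. Of 22 keratinocyte differentiation genes 7 were lower and 3 higher in SCC6, and none was opposite. SPRR1B, a cornified envelope precursor, fell by 5.18 ± 0.70 in SCC6 and was at 0.523 CPM or less in SCC1. Its difference between the lines was not called in the flow cell fit.

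The 10 opposite genes that rose in SCC1 and fell in SCC6, chosen by the same rule, were SLPI, SCEL, KRT15, RAB27B, KRT19, ARHGEF4, PTGES, LMO7, FKBP5 and SERINC5. SCEL (sciellin) is a precursor of the cornified envelope at chr13:78109809-78219398 on GRCh37. The 150 bases before its start and before that of SERPINB5 (maspin), an epithelial serpin and opposite gene, are shown because both hold TGANTCA, the letters searched for AP-1, a factor downstream of ERK. The SCEL match, TGACTCA, is a usual AP-1 element, while the SERPINB5 match, TGAATCA, fits the search only through its open middle letter. They are from RefSeq on GRCh38.p14, plus strand, 5′ to 3′, with the match in capitals. The SCEL stretch is chr13:77535556-77535705, and the SERPINB5 stretch is chr18:63476808-63476957.
SCEL: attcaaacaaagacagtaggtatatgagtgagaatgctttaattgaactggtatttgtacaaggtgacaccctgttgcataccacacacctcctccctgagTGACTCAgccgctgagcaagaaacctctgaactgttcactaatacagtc
SERPINB5: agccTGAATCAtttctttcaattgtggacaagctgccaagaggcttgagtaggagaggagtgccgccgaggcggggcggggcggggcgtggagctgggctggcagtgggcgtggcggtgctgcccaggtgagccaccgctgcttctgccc
The motif begins 49 bases before the start in SCEL and 146 bases before it in SERPINB5. Searched on both strands of the 300 bases, it was present in 9 of 124 genes that rose in SCC1 and fell in SCC6 (7.26%), in 7 of 186 that moved the other way (3.76%) and in 5.19% of all. The grainyhead motif AACCNGTT was present in 6 of 124 (4.84%), 0 of 186 and 1.5%, and the motif CAGGTG of ZEB and SNAI factors in 25.8%, 19.9% and 19.0%. The motif TNGCGTG of the aryl hydrocarbon receptor was present in 5.65%, 3.76% and 7.19%, and the CArG box in 0.806%, 2.69% and 1.03%. With the TEAD motif above, these were all the motifs searched. The shares were not tested, the grainyhead share rests on 6 promoters, and a match describes letters, not binding.

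SCEL was at 1.22, 0.482, 0.594, 0.929 and 2.32 CPM in SCC1 with PBS and at 5.95, 4.47, 7.28, 12.6 and 21.7 CPM with cetuximab, rising towards day 5. SCC6 had 11.4, 18.9, 22.4, 23.9 and 27.4 CPM with PBS and 9.48, 10.8, 8.7, 6.01 and 5.5 CPM with cetuximab, so that PBS rose with the day and CTX was lowest on days 4 and 5. No groups of a line overlapped, and the difference was -4.59 ± 0.59 (edgeR's adjusted p = 1.51e-05). SCEL was not called opposite without SCC6 CTX of days 4 and 5. SLPI, a secreted inhibitor of leukocyte proteases, was at 8.03, 5.03, 4.67, 4.91 and 8.15 CPM and 11.7, 13.99, 16.3, 17.7 and 20.5 CPM in SCC1 and at 241, 254, 244, 205 and 134 CPM and 46.02, 88.4, 29.2, 18.2 and 11.6 CPM in SCC6, PBS first. Cetuximab was above PBS in SCC1 and below it in SCC6 without overlap. The difference was -3.87 ± 0.54 (edgeR's adjusted p = 3.81e-05). PTGES, the synthase of prostaglandin E2, rose from 19.2 ± 4.84 to 92.7 ± 36.2 CPM in SCC1 and fell from 240.2 ± 63.2 to 128 ± 7.86 CPM in SCC6 (mean ± SD, n = 5). Its CTX level in SCC6 was even, at 118 to 139 CPM, while PBS rose to 313 CPM on day 5.

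FKBP5, a co-chaperone of steroid receptors that glucocorticoids induce, was at 153, 105, 95.02, 101 and 129 CPM and 227, 243, 263, 324 and 376 CPM in SCC1 and at 34.1, 37.1, 41.7, 41.9 and 44.5 CPM and 23.2, 27.1, 21.7, 20.6 and 20.6 CPM in SCC6, PBS first. Its groups did not overlap in either line, and the changes were 1.30 ± 0.14 and -0.82 ± 0.14 (edgeR's adjusted p of the difference = 8.19e-07). The labels, but not the study's methods, name hydrocortisone for the SCC1 medium, and its part in the level was not tested. RAB27B, a GTPase of vesicle release, changed by 1.03 and -2.14, ARHGEF4, a guanine nucleotide exchange factor, by 0.91 and -1.58, LMO7, a junction-associated protein, by 0.98 and -0.84 and SERINC5, a membrane protein, by 0.98 and -0.76. Under the flow cell fit SLPI, RAB27B and LMO7 were no longer called opposite, with SCC1 changes of 0.98, 0.69 and 0.64. SERPINB5 changed by 0.62 ± 0.18 in SCC1 and -0.92 ± 0.19 in SCC6, whereas SERPINB9, an inhibitor of granzyme B that was under 1 CPM in SCC6, changed by -0.85 and 1.19.

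Genes of xenobiotic and oxidative stress responses rose more in SCC1. Of 20 NRF2 targets 8 had a lower change in SCC6 and 1 a higher one, and of 7 aryl hydrocarbon receptor genes 4 were lower and none higher. Here the main difference was a rise in SCC1, where 12 of 20 and 6 of 7 rose and none fell. CYP1A1, the classic target of the receptor, was at 12.8, 7.38, 4.24, 6.1 and 8.25 CPM with PBS and 75.1, 117, 112, 144 and 155 CPM with cetuximab in SCC1, and at 16.9, 20.4, 23.8, 40.4 and 58.4 and 51.1, 42.3, 29.7, 41.7 and 38.2 CPM in SCC6. The SCC1 groups were far apart and the SCC6 groups overlapped, with changes of 3.96 ± 0.34 and 0.35 ± 0.30 (edgeR's adjusted p of the difference = 8.49e-06). AHR, the receptor itself, was opposite, going from 40.1 ± 2.81 to 62.6 ± 6.49 CPM in SCC1 and from 167 ± 71.05 to 115 ± 15.2 CPM in SCC6, where PBS rose from 88.3 to 279.9 CPM over the days and overlapped with CTX. In the flow cell fit its SCC1 change of 0.61 was not called. GCLC, which makes glutathione, changed by 1.31 and -0.38, and AKR1C1, an aldo-keto reductase, by 1.33 ± 0.26 and -0.72 ± 0.26. AKR1C1 and AKR1C2 are near-identical copies, so their split is uncertain. AKR1C2 rose by 3.95 ± 0.42 in SCC1 and had a change of 0.44 ± 0.37 in SCC6.

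Inflammatory genes mostly fell in both lines, with 16 of 21 lower in SCC1 and 13 in SCC6. Of all tested genes, 14.4% and 18.9% fell. The difference was called for 5 (23.8%, beside 17.3% of all tested genes), each with a higher change in SCC6. TNF was opposite. It was at 0.746, 0.679, 0.594, 1.02 and 1.4 CPM and 0.289, 0.504, 0.639, 0.336 and 0.475 CPM in SCC1 and at 0.35, 0.632, 0.589, 1.05 and 0.59 CPM and 5.33, 2.18, 4.31, 4.54 and 5.54 CPM in SCC6, PBS first. Levels were low, the SCC1 groups overlapped, and the SCC6 groups did not. Leukocytes are a common source of TNF. The summed level of 10 leukocyte markers was 19.8 to 53.6 CPM with PBS and 12.1 to 24.5 CPM with cetuximab in SCC1. In SCC6 it was 17.3 to 20 and 5.43 to 8.36 CPM. Of the 10, 7 stayed under 1 CPM in all libraries, and PTPRC and CD3E were at 0.157 CPM or less. CD68 alone was at 16.9 to 46.7 and 6.2 to 9.36 CPM in SCC1, PBS first. In SCC6 CD68 was at 16.7 to 19.1 and 3.72 to 7.13 CPM, while CSF1R was higher with cetuximab in both lines. CD14 was at 1.27 to 5.32 and 1.98 to 7.06 CPM in SCC1, PBS first, and at 0.134 CPM or less in SCC6. The part of these markers in the TNF levels was not tested. The difference of TNF was 3.74 ± 0.44 (edgeR's adjusted p = 6.36e-06). ICAM1, an adhesion molecule for leukocytes, changed by -0.94 and 0.51 with overlap in both lines. The cytokines CSF2 and LIF fell in both lines, by 4.33 and 2.94 in SCC1 and by 1.06 and 1.27 in SCC6.

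DNA replication genes fell more in SCC1. All 30 tested members fell there, and in SCC6 14 fell and 1 rose. The difference was positive in all 30 and called for 12, with a median of 0.38. TK1, a thymidine kinase of S phase, was the opposite gene. It was at 146, 134, 136, 135 and 138 CPM and 118, 88.4, 85.2, 75.7 and 76.6 CPM in SCC1 and at 83.8, 65.8, 72.5, 89.00 and 73.2 CPM and 94.8, 85.1, 86.2, 126 and 108 CPM in SCC6, PBS first. The SCC1 groups were apart, and in SCC6 only CTX 2a and days 4 and 5 lay above the PBS range. Its changes were -0.63 ± 0.12 and 0.38 ± 0.12 (edgeR's adjusted p of the difference = 0.000302), and in the flow cell fit the SCC6 change of 0.24 was not called. CDT1 and E2F1, which act at replication licensing and the start of S phase, fell by 0.91 and 0.59 in SCC1 and had changes of 0.08 ± 0.16 and 0.31 ± 0.17 in SCC6. In the flow cell fit the difference of CDT1 was not called, and that of E2F1 was. Of 26 mitosis genes 11 fell in SCC1 and 1 in SCC6. A difference was called for 2 (7.69%, beside 17.3% of all tested genes), among them AURKB with 0.78 ± 0.12. HIST1H1C, a linker histone, rose by 1.45 ± 0.14 in SCC1. Of 11 replication histones 9 rose in SCC1 and none fell, unlike the DNA replication genes, and 5 had a lower change in SCC6. The study enriched its libraries for poly(A) RNA, and the part of this step in the histone counts was not tested.

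The output of ERK signalling moved the same way in both lines. Of 18 tested genes 13 fell in SCC1 and 15 in SCC6, none was opposite, and the medians were -1.51 and -1.23. The difference was called for 9, with 6 higher and 3 lower in SCC6. PHLDA1, induced by growth factors, fell by 3.67 and 2.46, and EPHA2, a receptor induced by ERK, by 1.70 in SCC1 with a change of -0.50 ± 0.21 in SCC6. The differences of PHLDA1 and EPHA2 were not called in the flow cell fit. AREG (amphiregulin), an EGFR ligand, was at 203, 246, 329, 309 and 279.9 CPM and 87.1, 89.04, 108, 96.6 and 91.2 CPM in SCC1 and at 394, 537, 499.9, 419 and 376 CPM and 76.7, 89.3, 60.8, 23.5 and 15.1 CPM in SCC6, PBS first. Both lines fell without overlap, more so in SCC6 (difference -1.54 ± 0.44, edgeR's adjusted p = 0.0197).

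Outside the opposite genes, the largest differences at the same expression level were those of GPC4, DKK3, ANOS1 and TAGLN, higher in SCC6, and of KRT13, KRT6B, CYP1A1 and ALPP, lower in SCC6. DKK3, a secreted protein of the Dickkopf family, was at 128, 169, 169.6, 147 and 129 CPM and 128, 138, 143, 138 and 147 CPM in SCC1 and at 3.21, 2.85, 2.55, 3.25 and 5.16 CPM and 24.02, 14.3, 39.7, 51.6 and 67.4 CPM in SCC6, PBS first. It rose in SCC6 by 3.54 ± 0.31 while the SCC1 groups overlapped (difference 3.64 ± 0.40). ANOS1 (anosmin), an extracellular matrix protein, rose from 8.75 ± 1.43 to 93.2 ± 52.4 CPM in SCC6 and stayed under 0.6 CPM in SCC1. GPC4, a glypican, rose from 10.8 ± 1.38 to 70.2 ± 35.5 CPM in SCC6, and since it was at 0.332 CPM or less in SCC1 its difference of 3.83 ± 0.79 rests on few counts there and was -2.64 in the flow cell fit (edgeR's adjusted p = 0.601). ALPP, a placental alkaline phosphatase with near-identical copies, rose in both lines, by 4.80 ± 0.43 and 1.21 ± 0.37.

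Genes of protein synthesis and respiration had small differences. Of 76 cytosolic ribosomal proteins 21 had a lower change in SCC6 and none a higher one, with medians of -0.13 in SCC1 and -0.40 in SCC6, and of 60 respiratory chain subunits 14 were lower and 1 higher. The count of ribosomal proteins was 6 and that of respiratory subunits 1 without SCC6 CTX of days 4 and 5, the deepest libraries. RPS18 had changes of 0.03 ± 0.08 and -0.53 ± 0.08, and SDHD, a subunit of complex II, of 0.10 ± 0.11 and -0.48 ± 0.11. Among 13 mitochondrially encoded mRNAs and 30 interferon response genes, edgeR and DESeq2 each called 0 differences, and 2 and 3 genes had an unadjusted p under 0.05 by edgeR. The mesenchymal, contractile, epithelial junction, keratin, DNA replication, ribosomal and aryl hydrocarbon receptor lists had 0 genes against their direction by both tools, and 0 at an unadjusted p under 0.05 by edgeR.

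An opposite gene had to pass a test in both lines, which depends on its count level, so the level and gene class of the opposite genes are given as a description. Their annotated members were protein coding in 97.4% of cases among genes that fell in SCC1 and rose in SCC6 and in 93.7% among those that moved the other way, beside 88.7% of tested genes, and their median levels over the 20 libraries were 28.9 and 19.4 CPM beside 9.45 CPM. Median GC content of the longest transcript was 51.3% and 46.9% beside 47.9%. The lines also stood differently before and under treatment. Of the 233 genes that fell in SCC1 and rose in SCC6, 146 (62.7%) had the higher mean in SCC1 with PBS and 59 (25.3%) with cetuximab, and of the 172 that moved the other way 37 (21.5%) and 106 (61.6%), beside 48.2% and 49.5% of tested genes. These counts come from the same libraries as the changes, and the direction of each group fixes part of the shift.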

How the data were processed

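RNA-seq was measured by the authors in cultures of each line sampled daily. The deposited table holds estimated counts per gene symbol, made by the authors with Salmon 0.8.2 and tximport. The submitters' processing notes name the builds GRCh37 and hg19, and the annotation is not given in the sources used here. The deposited estimated counts were rounded to whole numbers, and 28.9% of values above 0 were whole as deposited. Samples were grouped by the line, treatment and day in the labels, with 5 libraries per group. Whole-library totals were 28508758 to 80727478.

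Genes were filtered with filterByExpr and scaled by TMM in edgeR 4.0.16 (R 4.3.3), and 19747 were tested with the quasi-likelihood F test in 1 design with a mean per line and treatment. P-values were adjusted by Benjamini-Hochberg, with 0.05 as the threshold. Standard errors came from the log2 fold change and the F statistic. CPM were TMM scaled. On simulated counts with known line-by-treatment differences, 54% of 100 seeded log2 differences of 1 and 77% of 100 seeded differences of 2 were recovered. In all, 19472 genes entered that comparison, with 11 false calls. The part of the day or the flow cell was not tested there.

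Named genes were, for each direction, the 10 opposite genes with the largest smaller change, log2 CPM averaging 3 or more and no overlap, the 4 other called genes with the largest difference at the same level, up to 3 called members of each list with the largest difference, and the genes that the study names. Not all list members that met this rule are described. Those left out include MYL7, FGFR3, ERBB4, IGFBP7, FBN1, SPRR2D, BTC and CGN. LOX, CMTM3, COL6A1, ACTA2, CYR61, FJX1, NUAK2, FBN2, ICAM1, INHBA, MARVELD2, PKP2 and GCLC were named once their values had been seen, and so were the promoters shown. The comparison, members and lists were chosen with earlier results of these data known. Alternatives were DESeq2 1.42.0, other scalings, no filter, a minimum size, single libraries left out, a day block, GC correction, the flow cell as a covariate, days 3 to 5, day 0 added to PBS and, chosen after seeing the data, SCC6 CTX of days 4 and 5 left out. Promoter sequences of 12339 tested genes were matched by symbol to RefSeq, using the first start listed per gene.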

Additional observations from a re-analysis of the deposited data

Results flagged for a closer look

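The change under cetuximab differed between the lines by the test of the difference itself for 3407 genes, and for each gene below by edgeR's quasi-likelihood test. On the log2 scale, the SCC6 change minus the SCC1 change was positive for LTB (5.61), DYSF (4.82), DPYSL3 (4.32), ARHGAP31 (4.44), CADM1 (3.51), WNT5B (3.20), PALM2-AKAP2 (3.20), ADAM12 (3.53), RFLNB (3.11), SLC22A3 (1.98), GPC4 (3.83), DKK3 (3.63), ANOS1 (3.47), TAGLN (3.37), VIM (5.87), AXL (1.75), CTGF (2.01), EPHB2 (1.94), TNF (3.74), VCAN (4.33), PDPN (3.16), COL6A1 (3.04), ACTA2 (2.90) and TK1 (1.01). It was negative for SLPI (-3.87), SCEL (-4.59), KRT15 (-3.69), RAB27B (-3.17), KRT19 (-2.12), ARHGEF4 (-2.48), PTGES (-3.17), LMO7 (-1.82), FKBP5 (-2.11), SERINC5 (-1.74), KRT13 (-6.06), KRT6B (-4.16), CYP1A1 (-3.62), ALPP (-3.59), CDH1 (-1.46), GRHL1 (-1.63), DSG3 (-3.11), KRT6A (-6.30), ZNF750 (-3.61), TGFBR3 (-2.32), ERBB3 (-1.34), AHR (-1.18), AKR1C1 (-2.05) and SERPINB5 (-1.54).

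A single library stood far from the other 4 of its group, by Dixon's ratio above 0.71, in 10 of 192 groups of the genes described. Chance flags about 1 in 20 groups. SCC6 PBS of day 1 was such a library for DYSF (9.66 CPM), ARHGEF4 (48.5 CPM), AXL (263.5 CPM), EPHB2 (81.9 CPM) and COL6A1 (2.80 CPM), in each case as the highest of its group. The others were SCC1 CTX of day 2 for SLC22A3 (6.25 CPM), SCC6 PBS of day 5 for DKK3 (5.17 CPM), SCC1 PBS of day 5 for CDH1 (137.6 CPM), SCC6 CTX 2a for DSG3 (1.00 CPM) and SCC1 PBS of day 1 for TK1 (146 CPM). Without SCC6 PBS of day 1, 4696 genes differed, beside 3407 with it. The part of the flow cell or the day in these values was not tested.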

How the results depend on the processing

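DESeq2, DESeq2 size factors and upper quartile scaling left the 5 counts within 1.5 times those reported (differences 3321 to 3905). Without a filter on low counts 2834 genes differed, of which 71.7% were higher in SCC6 beside 53.3% with it, and 83 rose in SCC1 and fell in SCC6. With a log2 size of at least 1 the counts were 1549 for the difference, 38 and 33 for the opposite genes, 1727 in SCC1 and 2075 in SCC6. Single libraries left out gave 2746 to 4696 for the difference, 174 to 331 and 126 to 251 for the opposite genes, 4802 to 6660 in SCC1 and 6041 to 8389 in SCC6.

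The flow cell as a covariate gave 1912 for the difference, 123 and 68 for the opposite genes and 3710 in SCC1. Days 3 to 5 gave 364 and 268 opposite genes. Without SCC6 CTX of days 4 and 5, 104 genes rose in SCC1 and fell in SCC6 and 4711 changed in SCC6. Removing a GC trend, for the 82.3% of genes with a GC value, gave 358 genes that fell in SCC1 and rose in SCC6. The cause of these shifts was not tested, beyond the fewer libraries or genes that some settings use.

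The day as a replicate block left 3367 or 3172 differences, with 245 and 194 or 232 and 197 opposite genes, for the first or second SCC6 CTX library labelled day 2 taken as day 1. With the GC trend also removed, the replicate block gave 445 and 321, or 5195 with 438 and 346. Residuals of same-day libraries correlated at 0.336, 0.284, 0.139, 0.14 and 0.107 in SCC1 and, in SCC6, at 0.521, -0.164 and 0.0233 on days 3, 4 and 5, while PBS of day 2 correlated at 0.477 with CTX 2a and at 0.536 with 2b. All 5 SCC1 pairs but not all SCC6 pairs exceeded 0.1, so the day was not taken as pairing, and not every library correlated best with its own day. The SCC6 pairs of days 4 and 5 lay on different flow cells, as did the SCC1 pairs of days 1 to 4. The part of the flow cell in these correlations was not tested, so the low SCC6 values do not show that the day was unshared. WNT5B was not called opposite with either block alone.

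Of the named differences under each alternative, 3009 values kept their direction and call, 38 lost the call, 16 gained it and 6 reversed. GPC4 was at -2.64 with the flow cell as a covariate. The other 5 were of differences that were not called: TFAP2A was at 0.0378 without the filter, 0.0322 with the flow cell, 0.0269 without SCC6 CTX of day 5 and 0.143 without SCC6 CTX of days 4 and 5, where ERBB2 was at -0.152. Of the 20 genes first named among the opposite genes, 15 kept the call with that covariate. Days stand for replicates, flow cell and treatment overlap, and low genes rest on few counts.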

Other observations

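The lists of sterol synthesis, ATF4 and MHC class I genes held no opposite genes. A called difference was found for 16.7% of the cholesterol synthesis genes and 17.4% of the ATF4 and ER stress genes, close to the 17.3% of all tested genes, and for 33.3% of the MHC class I genes. Of 24 cholesterol synthesis genes, 15 rose in SCC6 and 5 in SCC1, and 4 had a higher change in SCC6 by edgeR's quasi-likelihood test, with 5 by DESeq2. SQLE, an enzyme of the sterol pathway, rose by 0.62 ± 0.11 in SCC6 and had a change of 0.02 ± 0.11 in SCC1. Of 23 genes of ATF4 and ER stress, 4 had a higher change in SCC6, and the median change was -0.17 in SCC1 and 0.27 in SCC6. TRIB3, a pseudokinase induced by ATF4, had changes of -0.41 ± 0.23 and 0.64 ± 0.24. Of 15 MHC class I genes, 8 rose in SCC1 and 7 in SCC6, and 4 had a lower and 1 a higher change in SCC6.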
